A study of Mus musculus with 8 samples.

Results

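This account concerns 8 genes of the machinery that fuses synaptic vesicles with the presynaptic membrane: Snap25, Stx1a, Vamp1, Vamp2, Syt1, Syt2, Cplx1 and Sv2a. They are 8 of the 22180 genes that had an array feature linked to exactly 1 symbol. The genes were chosen by name, with earlier results of these data known, among them the lower Snap25 value in knockout cochlea. Where a gene has several features, the brightest on average is taken, but each of the 8 genes had 1, so that rule had nothing to decide. A further feature that the platform links to Vamp1 and to another symbol was not used. Because the outcome for Snap25 was known when the genes were named, its values below describe the result and add no independent support to it.

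RNA came from the cochlea of mice at postnatal day 16, with both encapsulated cochleae of 1 animal combined into 1 array. The groups were 4 miR-183/96 knockout animals, in which Mir183 and Mir96 are deleted, and 4 control animals, called wild type in the design text. The sources used here do not give the strain, the sex or how the deletion was made, and the labels name no treatment in either group. The values are log2 RMA expression values, a scale on which a difference of 1 is a doubling, and the arrays limit precision through their number. The encapsulated cochlea holds hair cells, neurons, glia, bone and marrow together, so fewer cells of a type and less RNA per cell cannot be told apart in these data.

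Synaptic vesicles fuse when a SNARE protein on the vesicle (a VAMP, or synaptobrevin) zips together with SNARE proteins on the target membrane (a syntaxin and SNAP-25). Synaptotagmins sense the calcium that enters with an action potential, complexins bind the assembled SNAREs and control the moment of fusion, and SV2 proteins are carried in the vesicle membrane and keep synaptotagmin in place. In the cochlea this machinery is known from spiral ganglion neurons and efferent endings. The ribbon synapse of inner hair cells depends on otoferlin and is known to work with an unusual set of these proteins.

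The deleted microRNAs belong to a cluster with Mir182, and their mature 5′ arms are shown because their seeds define the perturbation. The sequences are from RefSeq on GRCm38.p6, all on the minus strand of chromosome 6, with the seed (bases 2 to 8) in capitals:
mmu-miR-183-5p, chr6:30169711-30169732: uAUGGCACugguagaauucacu
mmu-miR-96-5p, chr6:30169506-30169528: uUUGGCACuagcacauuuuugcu
mmu-miR-182-5p, chr6:30165962-30165986: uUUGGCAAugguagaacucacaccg
No 2 of these seeds are the same. The seeds of miR-183-5p and miR-96-5p match at 6 of 7 positions, those of miR-96-5p and miR-182-5p at 6 of 7, and those of miR-183-5p and miR-182-5p at 5 of 7. Target sites in the 8 genes were not analysed here.

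The feature of Mir96 read 4.01, 4.26, 4.26 and 4.31 in the 4 knockout animals and 5.71, 5.26, 6.23 and 5.57 in the 4 control animals. Every knockout value lay below every control value, so no array went against its label (difference -1.48, SE 0.17, limma adjusted p = 0.00932). The Mir183 feature was dim, at 1.82 to 2.40 in knockout and 2.23 to 2.84 in control, and does not check the labels. Over the tested features each array's lowest correlation with another array was 0.961 to 0.977. Array SDs, a measure of signal range, were 1.37 to 1.44 in knockout and 1.41 to 1.56 in control. Differences also followed mean level: the median log2 difference (knockout minus control) was 0.13 in the lowest of 10 level classes and -0.21 in the highest. For the genes named at the start of this account, that median is printed below with the value after cyclic loess normalization. Cyclic loess brings the class medians to between -0.019 and 0.0034. Differences of other genes are mostly printed as deposited, without these values, and can contain the trend with mean level.

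Snap25 was lower in knockout cochlea, and the other 7 genes did not pass the test. Cplx1 and Vamp1 were at -0.45 and -0.39 on the log2 scale, and Sv2a was at -0.20. Vamp2, Syt1 and Syt2 lay between -0.08 and -0.03, and Stx1a was at 0.19. The threshold was a limma adjusted p of 0.05 over all 23521 tested features, and genes past it are described as called. Of the 8 genes 1 was called lower, where 0.0128% of all features were, and 0 were called higher, where 0% of all features were. At an unadjusted p under 0.05 in limma, 3 of the 8 genes were lower (Snap25, Cplx1, Vamp1), where 7.25% of all features were. On the higher side 0 of the 8 passed that level, against 7.04% of all features. After cyclic loess the lower count was 2 (Snap25 and Sv2a), and the signal range covariate gave 4 (Sv2a added). In 2 genes, Snap25 and Cplx1, the groups did not overlap and knockout was the lower one, as was so for 2.65% of all features. The opposite order occurred in 0 of the 8 genes and in 3.3% of all features. The median difference was -0.14 over the 8 genes and 0.01 over all features tested.

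**Figure D1:**
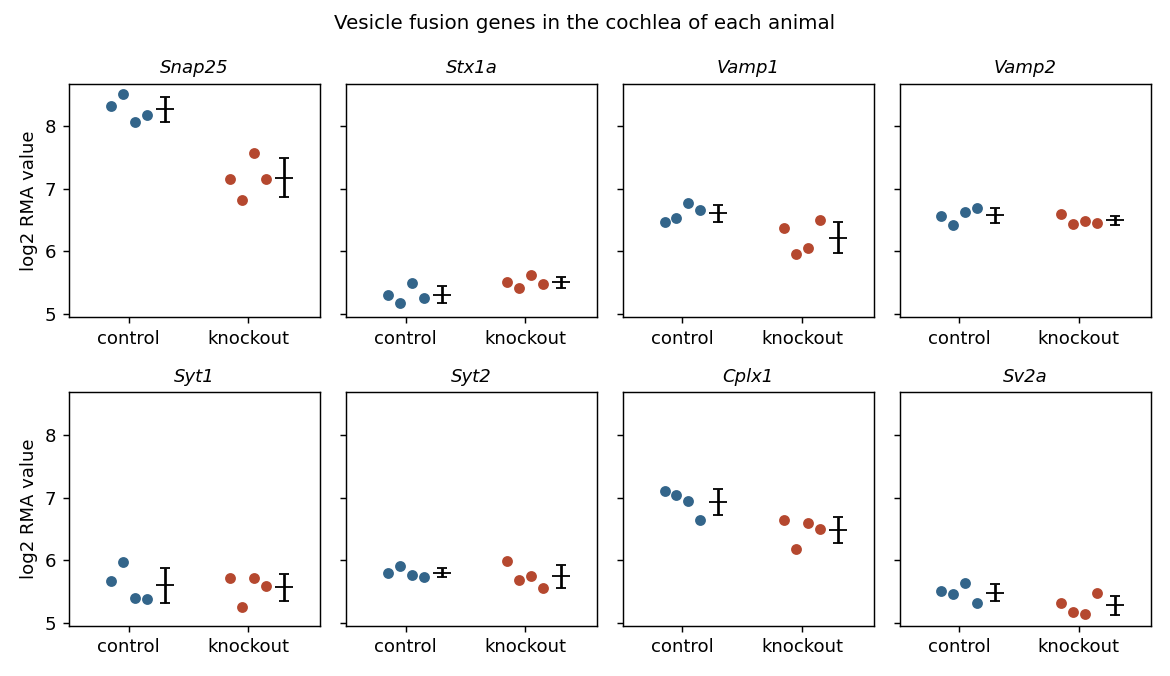
Log2 RMA value (y axis) of each of the 8 genes in the 4 control animals (blue points) and the 4 knockout animals (red points), with the group mean and SD as a black bar beside the points. Knockout Snap25 values of 6.82 to 7.57 all lie below the control values of 8.06 to 8.51, while Syt1, Syt2 and Vamp2 overlap between groups.

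Snap25 encodes SNAP-25, the target membrane SNARE that supplies 2 of the helices of the fusion complex and is the substrate of several botulinum toxins. Its feature (17376822, gene on chromosome 2) read 7.16, 6.82, 7.57 and 7.16 in knockout animals and 8.32, 8.51, 8.06 and 8.18 in control animals. The groups did not overlap: the highest knockout animal, replicate 3, was 0.49 below the lowest control animal, replicate 3. The difference was -1.09 (SE 0.15, 95% interval -1.41 to -0.77), from 8.27 ± 0.19 to 7.18 ± 0.31 (SD, n = 4 each; limma adjusted p = 0.0389). That is 2.13-fold lower, with an interval of 1.70-fold to 2.66-fold. Features of like mean level had a median of -0.21, and after cyclic loess Snap25 was at -0.87 (limma adjusted p = 0.219). With each array centred on its median the call was kept (-1.12, limma adjusted p = 0.0442), as it was without knockout replicate 3 (0.0158) or control replicate 3 (0.0159). Leaving out 1 knockout animal ended it for replicate 1 (limma adjusted p = 0.176), replicate 2 (0.059) and replicate 4 (0.153). Leaving out 1 control animal ended it for replicate 1 (0.181), replicate 2 (0.183) and replicate 4 (0.0808), and the difference stayed between -1.22 and -0.97. With the replicate number as a block the limma adjusted p was 0.24.

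Stx1a encodes syntaxin-1A, the partner of SNAP-25 on the target membrane. It read 5.51, 5.42, 5.62 and 5.48 in knockout animals and 5.31, 5.18, 5.50 and 5.26 in control animals. Control replicate 3 lay inside the knockout range, and the other 3 control animals lay below it. The difference was 0.19 (SE 0.11, 95% interval -0.05 to 0.43; limma adjusted p = 0.431), the only positive value among the 8 genes, and 0.15 after cyclic loess. The class median at its level was 0.06.

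Vamp1 and Vamp2 encode the vesicle SNAREs synaptobrevin-1 and synaptobrevin-2, of which the former is known as the prominent form in many fast-firing neurons of the auditory brainstem and spinal cord. Vamp1 read 6.37, 5.96, 6.06 and 6.50 in knockout animals and 6.47, 6.54, 6.78 and 6.66 in control animals. Knockout replicates 2 and 3 were low, and replicate 4 reached into the control range. The difference was -0.39 (SE 0.13, 95% interval -0.67 to -0.10; limma adjusted p = 0.301), beside a median of -0.16 for features of like level and -0.27 after cyclic loess. Vamp2 read 6.60, 6.44, 6.49 and 6.46 in knockout animals and 6.57, 6.42, 6.63 and 6.69 in control animals. All 4 knockout values lay inside the control range. Its difference was -0.08 (SE 0.10, 95% interval -0.30 to 0.14; limma adjusted p = 0.723) beside a class median of -0.16, and turned to 0.06 after cyclic loess.

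Syt1 and Syt2 encode synaptotagmin-1 and synaptotagmin-2, the calcium sensors of fast release. Syt1 read 5.72, 5.25, 5.71 and 5.59 in knockout animals and 5.66, 5.97, 5.39 and 5.38 in control animals. The ranges overlapped widely, with the highest value in control replicate 2 and the lowest in knockout replicate 2. The difference was -0.03 (SE 0.15, 95% interval -0.36 to 0.30; limma adjusted p = 0.927), beside a class median of 0.02 and -0.05 after cyclic loess. It was positive without knockout replicate 2 (0.07) or without control replicate 2 (0.09). Syt2 read 5.98, 5.69, 5.74 and 5.55 in knockout animals and 5.79, 5.90, 5.77 and 5.73 in control animals. Here the knockout animals spread wider (SD 0.18) than the control animals (SD 0.07) and enclosed them. The difference was -0.06 (SE 0.12, 95% interval -0.31 to 0.19; limma adjusted p = 0.831), beside a class median of -0.04 and -0.04 after cyclic loess. For both genes the interval excludes a fall as large as that of Snap25 on the same log2 scale. The interval covers the spread between arrays only, and the part of these values that is background was not measured.

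Cplx1 encodes complexin-1, the small protein that clamps and then speeds SNARE-driven fusion. It read 6.64, 6.18, 6.59 and 6.50 in knockout animals and 7.10, 7.04, 6.95 and 6.64 in control animals. The groups met without overlapping: knockout replicate 1 and control replicate 4 both round to 6.64 and were 8e-05 apart. The difference was -0.45 (SE 0.13, 95% interval -0.74 to -0.17), from 6.93 ± 0.20 to 6.48 ± 0.21 (SD, n = 4 each; limma adjusted p = 0.296), beside a level class median of -0.16. After cyclic loess it was -0.30 (unadjusted p = 0.0734 in limma). Cplx1 stayed negative in all 18 alternatives, from -0.67 to -0.30, with limma adjusted p from 0.124 to 0.611.

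Sv2a encodes the vesicle glycoprotein that is the binding site of the antiepileptic drug levetiracetam. It read 5.31, 5.18, 5.14 and 5.48 in knockout animals and 5.51, 5.46, 5.64 and 5.31 in control animals. Knockout replicate 4 lay among the control values, and control replicate 4 lay among the knockout values. The difference was -0.20 (SE 0.12, 95% interval -0.46 to 0.06; limma adjusted p = 0.438) at a level where the class median was 0.06. After cyclic loess Sv2a read -0.25 (unadjusted p = 0.0415, limma adjusted p = 0.503).

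**Figure D2:**
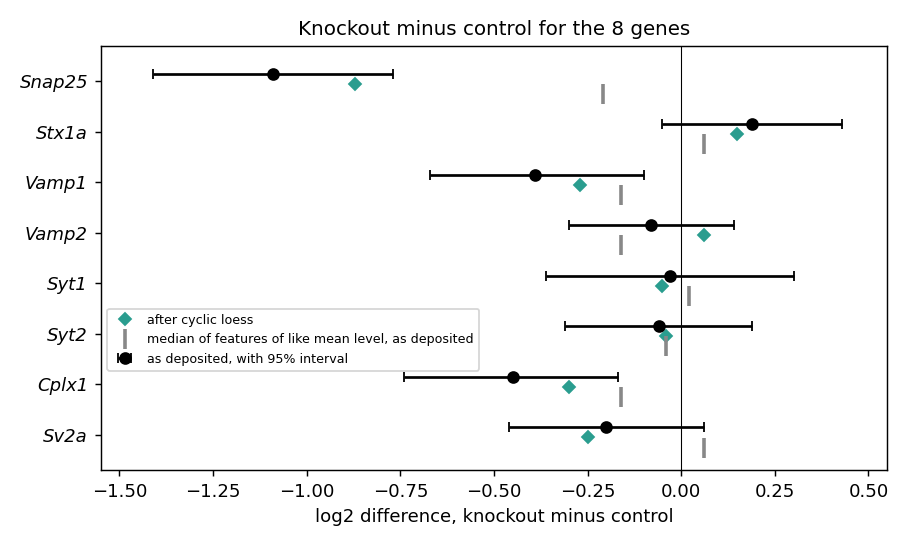
Log2 difference, knockout minus control (x axis), of the 8 genes: black points with 95% limma intervals for the deposited values, green diamonds after cyclic loess, grey ticks for the median of features of like mean level as deposited. The Snap25 interval of -1.41 to -0.77 lies clear of its grey tick at -0.21, and Vamp1 and Cplx1 lie closer to theirs at -0.16.

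Whether relatives of 1 family differed unequally was tested within arrays, where a shift shared by the whole array cancels. For each array 1 paralogue was subtracted from the other, and the 8 values were compared by a two-sided exact permutation test over 70 assignments, whose smallest p is 0.0286. Of 6 planned pairs the 5 below were tested, and p-values were adjusted over the 5. The planned syntaxin pair was not tested, so Stx1a has no such comparison. The widely expressed relative Snap23 read 6.71 to 6.84 in knockout and 6.81 to 6.97 in control animals (difference -0.15, limma adjusted p = 0.475). Snap25 minus Snap23 was 0.10 to 0.72 in knockout and 1.22 to 1.61 in control animals, a change of -0.94 with no overlap (exact permutation p = 0.0286, adjusted 0.143, n = 4 each). Since Snap25 was known to be low, this pair describes a size and is no independent test. A change of this size, -0.89, was also present after cyclic loess.

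Vamp1 minus Vamp2 went from 0.03 ± 0.12 in control to -0.28 ± 0.24 in knockout animals, a change of -0.31 (SD, n = 4; exact permutation p = 0.0857, adjusted 0.143). Cplx1 minus Cplx2 changed by -0.50 at the same exact permutation p of 0.0857 and adjusted p of 0.143, with 0.40 ± 0.28 in control and -0.10 ± 0.24 in knockout (SD, n = 4). Cplx2 encodes the other main brain complexin and differed by 0.05 (limma adjusted p = 0.854). Syt1 minus Syt2 changed by 0.02 (exact permutation p = 0.857, adjusted 0.857), and Sv2a minus Sv2b by 0.12 (exact permutation p = 0.514, adjusted 0.643). Sv2b was itself at -0.32 (limma adjusted p = 0.334). None of the 5 pairs passed after adjustment, and with 4 animals a group a lone separated pair cannot go below an adjusted p of 0.143. Without knockout replicate 4 the Vamp pair had no overlap (change -0.41), and without control replicate 4 the complexin pair had none (change -0.64). In each case the array left out was the one that made the overlap, so this adds no support. With any other array left out each of these 2 pairs overlapped, at exact permutation p up to 0.171 for Vamp and 0.143 for complexin.

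The promoters of Cplx1 and Vamp1 are shown because these 2 of the 8 genes had the most negative differences after Snap25, though neither was called. RefSeq windows of 300 bases around the gene start were used, on GRCm38.p6, and 6 of the 8 genes matched with 8 windows; Snap25 and Vamp2 had no entry. GC boxes (GGGCGG on either strand) are in capitals:
Cplx1, chr5:108549978-108550277, minus strand: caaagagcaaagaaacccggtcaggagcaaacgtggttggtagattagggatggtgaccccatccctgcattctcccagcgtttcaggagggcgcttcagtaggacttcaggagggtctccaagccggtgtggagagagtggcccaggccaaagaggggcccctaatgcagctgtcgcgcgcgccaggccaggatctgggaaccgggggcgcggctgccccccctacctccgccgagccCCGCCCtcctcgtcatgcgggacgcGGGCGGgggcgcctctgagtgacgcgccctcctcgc
Vamp1, chr6:125215331-125215630, plus strand: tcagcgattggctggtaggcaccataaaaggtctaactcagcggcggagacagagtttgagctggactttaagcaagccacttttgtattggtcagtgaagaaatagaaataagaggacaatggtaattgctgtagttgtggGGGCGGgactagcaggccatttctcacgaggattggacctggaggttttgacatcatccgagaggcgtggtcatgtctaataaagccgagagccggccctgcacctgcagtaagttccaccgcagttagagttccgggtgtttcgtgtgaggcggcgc
The Cplx1 window holds 2 GC boxes and is 67% G or C, and the Vamp1 window holds 1 and is 51.7% G or C, where the median of 32851 RefSeq windows is 52.7%. At least 1 GC box stood in 7 of the 8 windows and in 35.7% of all windows. The 8 windows ranged from 44% to 74.3% G or C, and windows of like content were not compared. The letters CCAAT (either strand) occur 3 times in the Vamp1 window and 0 times in the Cplx1 window, and 37.4% of all windows hold them. The letters TGACG (either strand), which are part of the cAMP response element, occur 2 times for Cplx1 and 0 times for Vamp1, with 20.8% of all windows holding them. The letters TATAAA were in 0 of the 8 windows and in 13.6% of all. The E-box letters CANNTG, where N is any base, were in 6 of the 8 and in 72.3% of all. These matches describe the sequence and were not related to the expression values.

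A wider list of 151 genes of vesicle fusion and recycling, the 8 genes included, had 144 measured members, and Snap25 was the only one called. At an unadjusted p under 0.05 in limma, 23 of the 144 (16%) were lower and 3 (2.08%) were higher, beside 7.25% and 7.04% of all features. The list median was -0.09 as deposited and -0.05 after cyclic loess. Cyclic loess gave a lower count of 15 (10.4%, beside 4.05% of all features), and the signal range covariate gave 13 (9.03%, beside 3.14%). With 1 array left out it was 15 for knockout replicate 1 (10.4%, beside 6.01% of all features). It was 11 for control replicate 2 (7.64%, beside 3.66%) and 14 for control replicate 4 (9.72%, beside 3.78%). Without control replicate 3 it was 34 (23.6%, beside 12.6%). The higher count became 1 when knockout replicate 3, knockout replicate 4 or control replicate 2 was left out, 5 when knockout replicate 1 was and 6 when control replicate 3 was. No set test was made on these lists.

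**Figure D3:**
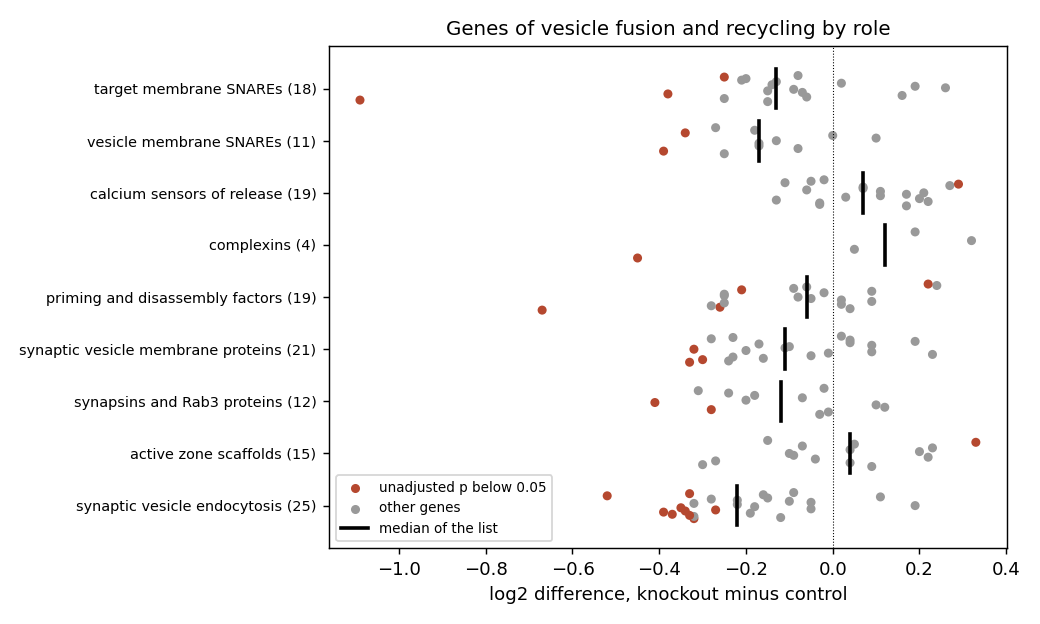
Log2 difference, knockout minus control (x axis), of every measured gene in 9 role groups, with the number of genes in parentheses, red points at an unadjusted limma p below 0.05 and a black line at each group's median. Group medians run from -0.22 for endocytosis to 0.12 for the complexins, and Snap25 at -1.09 is the point farthest left.

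Among 18 target membrane SNAREs, 14 had negative differences and the median was -0.13, which became -0.03 after cyclic loess. Beside Snap25, the endosomal syntaxin genes Stx12 (-0.38, unadjusted p = 0.034) and Stx7 (-0.25, unadjusted p = 0.0404) reached that level, and neither passed adjustment. Of 11 vesicle membrane SNAREs 10 were negative (median -0.17, and -0.10 after cyclic loess), with Vti1a of the Golgi and endosome at -0.34 (limma adjusted p = 0.306). Of 19 calcium sensors 12 were positive, with a median of 0.07 that was 0.03 after cyclic loess, and 1 was higher at an unadjusted p under 0.05 in limma (5.26%, beside 7.04% of all features). Syt6, at 5.12 ± 0.07 in control and 5.41 ± 0.09 in knockout animals (SD, n = 4; limma adjusted p = 0.305), had its groups apart, and Syt10 was at 0.22. Otof, the calcium sensor of hair cell ribbon synapses, was at -0.03. Among the 4 complexins Cplx1 was the only negative value, and Cplx3, known from ribbon synapses of the retina, was at 0.32 (limma adjusted p = 0.381).

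Cadps, which primes vesicles and dense-core granules for fusion, had the most negative difference of 19 priming and disassembly genes. It went from 5.01 ± 0.28 in control to 4.34 ± 0.26 in knockout animals (SD, n = 4). Its difference of -0.67 (SE 0.16; limma adjusted p = 0.286) became -0.78 after cyclic loess, and its groups did not overlap. Unc13d, a Munc13 relative of blood cells, was at 0.22, and the disassembly factors Nsf and Napa were at -0.25 and -0.26. In 21 vesicle membrane proteins the median was -0.11, with Scamp5 at -0.30 and the proton pump subunit gene Atp6v0a1 at -0.33. The vesicle marker synaptophysin, Syp, was at -0.28. Of 12 synapsin and Rab3 genes 10 were negative, as in Rab3d (-0.41), Rab3a (-0.28) and Syn1 (-0.24), none of them past the adjusted threshold. The 15 active zone scaffold genes had a median of 0.04, with Rims3 at 0.33, Ctbp1 at -0.30, Bsn at 0.09 and Pclo at 0.22.

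Vesicle endocytosis genes had the lowest median of the 9 groups, -0.22 over 25 measured genes, of which 23 were negative. At an unadjusted p under 0.05 in limma, 9 were lower (36%, beside 7.25% of all features) and 0 were higher, and 0 were called. They were the clathrin genes Cltb (-0.39) and Cltc (-0.34), the adaptor subunit gene Ap2m1 (-0.33), Dnm1 (-0.35), Synj1 (-0.33), Amph (-0.32), Bin1 (-0.37), the chaperone gene Dnajc5 (-0.27) and the synuclein gene Sncg (-0.52). Dnm1, Synj1 and Amph encode dynamin-1, synaptojanin-1 and amphiphysin, which pinch off and uncoat vesicles. Cyclic loess moved the median to -0.13, equal to that of the vesicle membrane proteins, and the count to 5 (20%). Signal range as a covariate moved the count to 3 (12%). The share of all features in these settings was 4.05% and 3.14%. Leaving out knockout replicate 3 or 4 gave 5 (20%, beside 4.12% and 4.05% of all features). Leaving out control replicate 2 gave 3 (12%, beside 3.66%), and leaving out control replicate 3 gave 13 (52%, beside 12.6%). Of the 9 genes, Ap2m1 and Cltc lay in the brightest level class, where the median of all features was -0.21, and Dnm1, Bin1 and Dnajc5 lay in the next, where it was -0.16.

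General neuronal markers gave a mixed picture, with 13 of 16 negative and a median of -0.27, or -0.19 after cyclic loess. Of the 16, 8 were lower at an unadjusted p under 0.05 in limma (50%, beside 7.25% of all features), 0 were higher and 0 were called. The lowest were the neurofilament genes Nefl (-0.91, limma adjusted p = 0.226) and Nefm (-0.73, limma adjusted p = 0.286), while Gap43 was at 0.20, Prph at 0.12, Elavl3 at 0.01 and Rbfox3 at -0.07. The count was 5 (31.2%) after cyclic loess, beside 4.05% of all features in that setting. It was also 5 (31.2%) when knockout replicate 1 was left out (beside 6.01% of all features) or control replicate 2 was (beside 3.66%). The mean level of the 16 genes was 5.89, 5.68, 5.95 and 6.01 in knockout animals and 6.33, 6.29, 6.08 and 5.94 in control animals. These ranges overlapped, and the difference was -0.28.

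Relative to that neuronal level in the same array, Snap25 stood 1.14 to 1.62 above it in knockout and 1.98 to 2.24 above it in control animals. The difference so measured was -0.81, and the groups did not overlap. Cplx1 minus the neuronal level was 0.49 to 0.75 in knockout and 0.70 to 0.87 in control animals, a difference of -0.17 with overlap. Vamp1 on the same measure differed by -0.11, Sv2a by 0.08, Vamp2 by 0.20, Syt2 by 0.22 and Syt1 by 0.25. Stx1a stood at -0.53 to -0.26 in knockout and -1.11 to -0.58 in control animals, a difference of 0.47 without overlap. These are descriptions with no test, since a difference of this kind can move through either term.

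**Figure D4:**
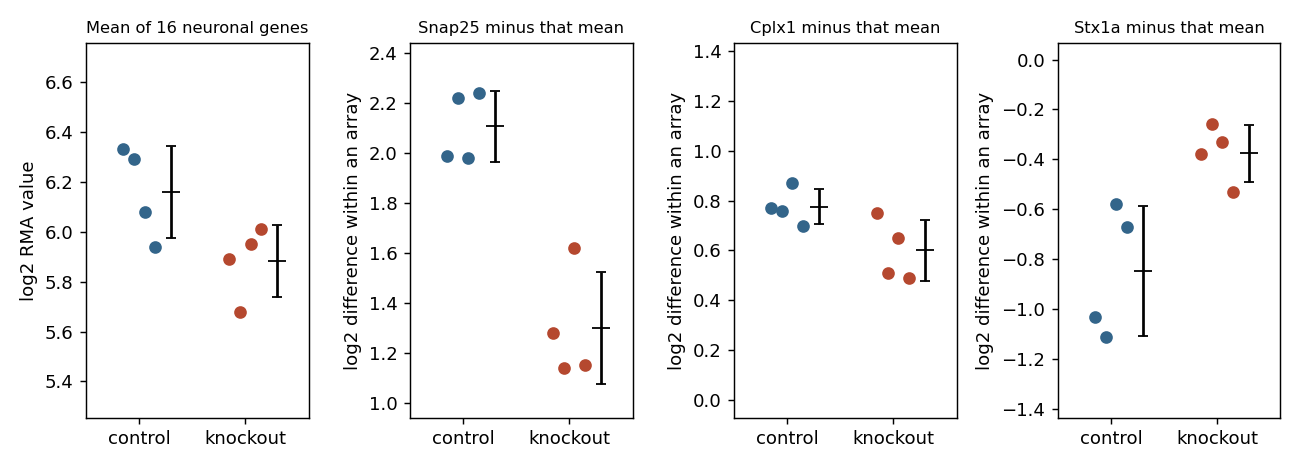
Mean log2 RMA value of 16 neuronal genes in each animal, and Snap25, Cplx1 and Stx1a minus that mean in the same array (log2 difference), with control animals in blue, knockout animals in red, the mean and SD in black and the same span on every y axis. Snap25 remains separated (1.14 to 1.62 against 1.98 to 2.24), Cplx1 overlaps, and Stx1a lies higher in knockout animals.

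Among 14 measured spiral ganglion neuron markers, Calb2 (calretinin) was called lower, at -1.60 (limma adjusted p = 0.000752), and Calb1 was at -1.08. The list level was 5.09 to 5.32 in knockout and 5.35 to 5.52 in control animals, a mean that includes those 2 genes. The list median was -0.13, and Gata3 (0.19) and Pou4f1 (0.17) had positive values. At an unadjusted p under 0.05 in limma 3 of the 14 (21.4%) were lower, beside 7.25% of all features. Of 16 hair cell markers 0 reached an unadjusted p under 0.05 in limma, beside 7.25% of all features lower and 7.04% higher. Espn was at 0.22 and Pou4f3 at -0.10, and list levels were 5.19 to 5.31 in knockout and 5.17 to 5.33 in control animals. The 5 markers of efferent cholinergic endings had levels of 4.94 to 5.12 in knockout and 4.81 to 4.94 in control animals. Slc5a7 was at 0.28, Prima1 at 0.26, Chat at 0.18, Slc18a3 at -0.01 and Ache at -0.03. Their median of 0.18 became 0.06 after cyclic loess. In the 10 measured Schwann cell and myelin markers 2 (20%) were lower at that p, Mal (-0.57) and Ugt8a (-0.44), beside 7.25% of all features. The level of that list was 6.13 to 6.40 in knockout and 6.37 to 6.68 in control animals. Of 10 supporting cell markers 4 (40%) were lower at that p, beside 7.25% of all features. The smallest p was in Fbxo2 (-0.42) and Slc1a3 (-0.29). List levels were 5.86 to 6.23 in knockout and 6.02 to 6.32 in control animals.

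Skeletal muscle had 15 of 15 markers negative, with a median of -0.74 that became -0.59 after cyclic loess. At an unadjusted p under 0.05 in limma 7 (46.7%) were lower, beside 7.25% of all features. The groups overlapped for each muscle marker. The muscle list had levels of 5.56 to 6.78 in knockout and 6.57 to 8.50 in control animals, with Actn3 at -0.90 and Pvalb at -0.96. Single animals stood out. Myh4 read 9.59 in control replicate 2 but 6.42, 7.28 and 5.75 in control replicates 1, 3 and 4. Mylpf read 4.32 in knockout replicate 1 but 7.01, 6.20 and 6.62 in knockout replicates 2, 3 and 4. All 9 measured brain markers had positive differences, such as Gabra6 at 0.27 and Gad2 at 0.17. Of the 9, 0 were higher at an unadjusted p under 0.05 in limma, beside 7.04% of all features. The brain list median was 0.11 as deposited and 0.10 after cyclic loess. Single genes moved either way in that setting, with Gabra6 at 0.14, Opalin at -0.04 and Gfap going from 0.17 to 0.19. The brain list had levels of 5.06 to 5.2 in knockout and 4.90 to 5.06 in control animals. Blood and marrow markers were at 8.63 to 8.98 in knockout and 8.79 to 9.32 in control animals. At an unadjusted p under 0.05 in limma 4 of 10 (40%) were lower and 1 (10%) was higher, beside 7.25% and 7.04% of all features. The median of that list, -0.33 as deposited, became -0.15 after cyclic loess. In that setting the 4 lower genes, Slc4a1, Cd79a, Cd79b and Ms4a1, had unadjusted limma p-values of 0.183, 0.0862, 0.0761 and 0.122. As deposited Cd79b was at -0.44 and Cd79a at -0.39. The neutrophil genes went different ways, with S100a9 and S100a8 at 0.35 and 0.27 but Ngp, Mpo and Elane at -0.01, -0.23 and -0.27. After cyclic loess S100a9 was at 0.45 (unadjusted p = 0.00143 in limma) and S100a8 at 0.31 (unadjusted p = 0.0253 in limma). Ngp, Mpo and Elane were then at 0.05, -0.02 and -0.06. No detection call was used, so none of these markers could be set at 0, and their part in the values of the 8 genes was not tested.

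Of the 8 genes, Cplx1 followed Snap25 most closely over the 8 arrays (Pearson r = 0.88, rank 76 of 22179 genes), and Vamp1 was at 0.65, Sv2a at 0.52 and Stx1a at -0.63. These values contain the difference between groups. With each group's mean taken out, Syt1 had the highest correlation with Snap25 (r = 0.83), then Cplx1 (0.65), and Vamp1 was at -0.14. Over the 28 pairs among the 8 genes the correlation of these deviations ran from -0.43 to 0.83 with a median of 0.16, and 18 pairs were positive. Vamp1 and Sv2a formed another pair that varied together within groups (0.70), as did Syt1 and Cplx1 (0.80). All are descriptions over 8 arrays, in which the genes of 1 array share its RNA sample, its signal range and its tissue make-up.

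The 6 genes most like Snap25 over the 8 arrays were Coro2a (r = 0.985), Fgf12 (0.984), Ndn (0.969), Cadps (0.964), Clec2l (0.961) and Elof1 (0.960). Fgf12 encodes a sodium channel partner of neurons and Ndn the neuronal growth regulator necdin, and Cadps also belongs to the wider list. Their differences were -0.25 for Coro2a, -0.93 for Fgf12, -0.38 for Ndn, -0.67 for Cadps, -0.84 for Clec2l and -0.51 for Elof1, with 0 of the 6 called (limma adjusted p from 0.0868 to 0.308). With group means taken out the 6 most like Snap25 were Olfr881 (0.984), Mrps14 (0.983), Esp18 (0.972), Nol4l (0.971), Them6 (0.964) and Baiap2l1 (0.956). Their differences lay between -0.17 and 0.16, and none of them is in the other set of 6.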

How the data were processed

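According to the labels and the submitters' processing notes, the deposited log2 values are gene-level RMA output of Affymetrix Expression Console. RMA corrects background, quantile-normalizes and summarises probes by median polish. The sources used here give no software version, annotation release or genome build, nor which arrays were normalized as 1 set. Values ran from 0.90 to 13.47, a log2 range.

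Of 41345 features, 23521 had exactly 1 symbol, 1814 several and 16010 none. The 23521 were fitted on genotype in limma 3.58.1 (R 4.3.3; lmFit, eBayes with intensity trend) and adjusted over all of them by Benjamini-Hochberg at 0.05. Differences are always knockout minus control. Paralogue pairs used exact permutation tests (scipy 1.17.1). The fit was tested on simulated data.

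The 8 genes, the lists and the tests were chosen with earlier results of these data known, and the unadjusted counts were added after the values were seen. Named were the 8 genes, their paralogues, the 2 smallest p of each list, called genes and the 6 most like Snap25; others were named after their values were seen. Some listed symbols were not analysed here. Alternatives were the replicate block, other variance models, feature sets, normalizations, a signal range covariate, array weights and each array left out. Same-numbered animals did not deviate together in every pair, so the numbers were not taken as pairs.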

Additional observations from a re-analysis of the deposited data

How the results depend on the processing

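Snap25 stayed negative in all 18 alternatives and kept its call in 6: mean level of at least 5, 1 feature per gene, median-centring, array weights, and without knockout replicate 3 or control replicate 3. It lost the call at -1.09 with the replicate block, without the intensity trend (limma adjusted p = 0.0528), with robust variance (0.052), with all features of the table (0.184) and with the signal range covariate (0.489), and at -0.87 after cyclic loess (0.219). Leaving out 1 array gave -1.22 to -0.97. The count of the 8 genes called lower, and that of the wider list, was 0 instead of 1 in those same 6 alternatives, and 0 to 1 when 1 array was left out. The count called higher was 0 in all 18. Signs turned, among genes that were never called, for Vamp2 after cyclic loess (0.06), for Syt1 without knockout replicate 2 (0.07) or control replicate 2 (0.09) and for Syt2 without knockout replicate 4 (0.01), and the other 5 genes kept theirs. With 1 array left out Syt1 ranged from -0.11 to 0.09 and Syt2 from -0.14 to 0.01. The number of paralogue pairs without overlap was 1, and 1 to 2 when 1 array was left out.

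With the replicate number as a block, Snap25 was at -1.09 with a limma adjusted p of 0.24. The correlation of same-numbered animals' deviations was 0.057, 0.2123, 0.2148 and -0.2887 for numbers 1 to 4, so the block is a sensitivity check and not a pairing, and not every animal correlated best with its own number. Other features of the 8 genes could not be tried, since each had 1. The cause of these changes was not tested. Dim features could not be told from background, and 4 animals a group limit the intervals to those printed.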
